A study of Mus musculus and Rattus norvegicus with 53 samples.

Results

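Schwann cells (SCs) of the nerve bridge were compared between 10 and 4 days after transection of the mouse sciatic nerve. The comparison was set by the sample labels and covered every gene: 3 bridge libraries of day 10 (replicates 1, 2 and 3) against 3 of day 4 (replicates 0, 1 and 2), 6 of the 53 samples of the series. The 6 belong to a time course of 35 libraries from single nerves, which also holds intact nerves (5 libraries), the distal stump at days 1 to 10 and the bridge at days 6 and 8. The bridge libraries of days 6 and 8 (3 each) and the distal libraries of days 4 and 10 (3 each) are given here as context. All animals were tdTomato+ mice in which a Cre driven by a promoter active in the neural crest lineage switches on tdTomato from the Rosa26 locus. The label marks most but not all SCs, and the neural crest also gives rise to cells other than SCs. In young adults of both sexes 1 sciatic nerve was cut through, and by the labels the 2 groups differed in the day of collection after the cut. tdTomato+ cells were sorted from 1 nerve per library, with gates set on animals without Cre. The labels give each of the 6 libraries an animal of its own. The polyadenylated RNA of the sorted cells was amplified by Smart-seq2, which reads whole transcripts from little RNA.

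The bridge is the new tissue that fills the gap between the nerve stumps. It starts as a matrix laid down by fibroblasts, macrophages and new blood vessels, and SCs leaving the stumps enter it as cords that carry the regrowing axons across. SCs of a cut nerve lose their myelin program, take on a repair state and later, in contact with axons, can build myelin again. Day 4 and day 10 therefore bracket the time in which SCs enter the bridge and cross it. In sorted bulk samples a lower value can mean fewer cells of a type or less RNA per cell, and these cannot be told apart.

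Levels are given as CPM, counts per 1000000 counts on the tested genes, scaled between libraries by edgeR's trimmed mean of M values. Values of single libraries are always in the order replicates 0, 1 and 2 at day 4, and 1, 2 and 3 at day 10. The 6 libraries held between 10167926 and 22426128 counts on genes. Genes with a count numbered 12597 to 13590 at day 4 and 11983 to 13270 at day 10.

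Several libraries stood apart, which bears on every result that follows. Day 4 replicate 1 was nearly the same as the distal day 4 library of the same animal: chi-square per degree of freedom of their counts was 3.96, against a next lowest value of 47.94 and a median of 294.7 over all 595 pairs of the time course. Within the day 4 bridge group it was between 177.4 and 265.2, and within the day 10 group between 214.9 and 412.1. Apod, a secreted lipocalin, heads a list of genes chosen as higher in dSCs (SCs of the distal stump) than in bSCs (SCs of the bridge) on other, pooled libraries of the series. The files hold 33 genes of the list. Apod was at 9980, 17725 and 80.2 CPM at day 4 and at 22.6, 636 and 483 CPM at day 10. Day 4 replicates 0 and 1 thus stood at the level of the distal stump, where 11 libraries of days 4 to 10 held between 3754 and 41554 CPM, and replicate 2 stood with the rest of the bridge. Bridge day 8 replicate 2 (33529 CPM) also stood with the distal stump, and distal day 10 replicate 0 (56.8 CPM) with the bridge. The other genes of the list, summed, were at 2538, 1743 and 599 CPM in the day 4 libraries and between 126 and 1061 CPM in the 9 bridge libraries that include replicate 2 and leave out the 3 with high Apod. Whether these libraries held tissue of the other region, carried the other region's label or differed in life was not tested.

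**Figure D1:**
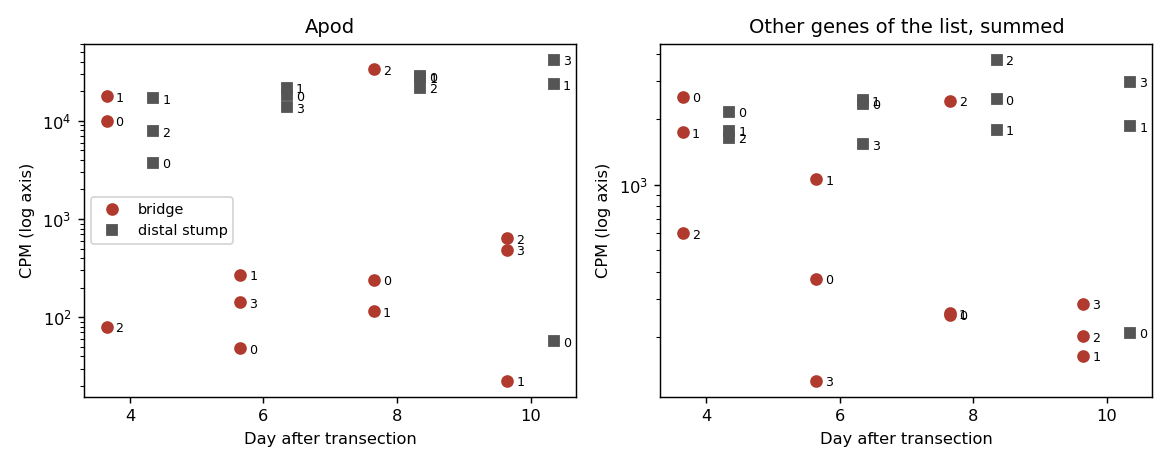
Apod (left) and the sum of the other genes of the study's distal-high list (right) in CPM on log axes, for each bridge (red circles) and distal (grey squares) library of days 4 to 10, numbered by replicate. Day 4 replicates 0 and 1 and day 8 replicate 2 of the bridge lie among the distal libraries, and distal day 10 replicate 0 lies among the bridge libraries.

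The sex of the animals differed between the groups. Xist, the RNA of the inactive X chromosome, was at 86.5, 233 and 91.1 CPM at day 4, where Y-linked genes summed to at most 0.09 CPM. At day 10 Xist was at 0 and 0.14 CPM in replicates 1 and 3, where Y-linked genes summed to 167 and 169 CPM, and at 243 CPM in replicate 2, where they were at 0. All 3 day 4 libraries and 1 of 3 at day 10 thus read as female, so sex and day partly coincide, and the part of sex in the results was not tested. At day 8 the labels gave bridge and distal libraries of animals 25 and 26 to the same mice, but the bridge libraries held Xist and no Y-linked RNA and the distal libraries Y-linked RNA and at most 0.08 CPM of Xist. Bridge day 10 replicate 3 stood apart on the first principal component of the 12 bridge libraries, at 120.2 against a range of -22.46 to 19.86. Away from the 6 libraries, 4 of the time course (2 of intact nerves and 1 each of the distal stump at days 1 and 2) held only 10042 to 11138 genes, against 11983 to 15815 in the other libraries. They enter the shared estimate of the spread, so counts are also given without them. The counts of called genes are also given with single libraries of the 2 groups left out.

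The markers of SCs were counted in all 6 libraries, some of them near 0. S100b was at 0.52 CPM in day 10 replicate 3, and Foxd3 at 1.59 and 1.95 CPM in day 4 replicates 0 and 2. Sox10, Cdh19 and Ngfr were lowest in day 4 replicate 2, and S100b in day 10 replicate 3. Sox10, the transcription factor that defines the lineage, was at 30.7, 49.5 and 8.17 CPM at day 4 and 109, 79.3 and 87.7 CPM at day 10. Cdh19, a cadherin of the SC lineage, was at 152, 159 and 9.24 CPM and 141, 76.2 and 245 CPM. Sox10 was higher in every day 10 library than in any of day 4, and Cdh19 overlapped. Genes of red cells, lymphocytes, skeletal muscle and neutrophils were near 0: their lists summed to at most 5.71, 45.2, 20.3 and 64.8 CPM. Genes of fibroblasts, macrophages and endothelium were abundant beside them and are given with the results they move with.

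In an edgeR quasi-likelihood test with Benjamini-Hochberg adjustment over 7171 genes, fitted to all 35 libraries, 4 genes passed an adjusted p of 0.05 between day 10 and day 4. All of them, Fbn1, Mrc2, C1qtnf2 and Htra3, fell, and they make up 0.0558% of the genes tested. Fbn1 is on the lists of matrix and mesenchymal genes. It is also on a list of genes chosen as higher in the distal stump than in the bridge on the pooled libraries. The other 3 are on none of the lists. At an unadjusted p under 0.05, 234 genes were lower (3.26%) and 185 higher (2.58%), which became 199 and 134 without day 4 replicate 1 and 199 and 99 without replicate 2. The day 10 libraries all lay below the day 4 libraries for 486 genes (6.78%) and all above them for 605 genes (8.44%). In counts simulated for these 7171 genes, the test called 21% of 4-fold and 57% of 8-fold changes with the spread fitted over all 35 libraries. With the spread fitted without the few-gene libraries it called 46% and 85%. False calls were 2 and 6. The simulated libraries were drawn independently around 1 level per gene apart from the set changes, so none of them stood apart as real ones did.

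Fbn1 encodes fibrillin-1, the main protein of the microfibrils that carry elastic fibres and hold latent TGFβ. The gene lies at chr2:125126330-125333729 on the minus strand of NCBIM37, the mouse build that is also called mm9. It was at 963, 1632 and 3899 CPM at day 4 and 321, 428 and 305 CPM at day 10. The groups did not overlap, and day 4 replicate 2 stood far above its group. Fbn1 fell 6.16-fold (log2 fold change -2.62 ± 0.46, SE, adjusted p = 0.0236, edgeR). On the days between, its levels were 1245, 1353 and 532 CPM (day 6) and 862, 729 and 776 CPM (day 8), all above day 10.

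Mrc2 encodes Endo180, a receptor through which mesenchymal cells take up collagen fragments (chr11:105153957-105212453, plus strand). It was at 78.04, 161 and 174 CPM at day 4 and 21.9, 24.5 and 11.9 CPM at day 10. The 2 groups did not overlap, and day 4 replicate 0 was the lowest of its group. Mrc2 fell 7.09-fold (log2 -2.83 ± 0.54, SE, adjusted p = 0.0327, edgeR). C1qtnf2, a secreted protein of the C1q and TNF related family (chr11:43287778-43305027, plus strand), was at 57.9, 78.5 and 116 CPM and 7.97, 11.7 and 0.66 CPM. It was nearly absent from day 10 replicate 3 and fell 12.4-fold (log2 -3.64 ± 0.70, SE, adjusted p = 0.0327, edgeR). Htra3, a secreted serine protease (chr5:35994682-36022431, minus strand), was at 155, 221 and 807 CPM and 39.4, 73.96 and 40.1 CPM. Its highest value, in day 4 replicate 2, was again far above the rest of that group, and the groups did not overlap. Htra3 fell 7.71-fold (log2 -2.95 ± 0.59, SE, adjusted p = 0.0473, edgeR).

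**Figure D2:**
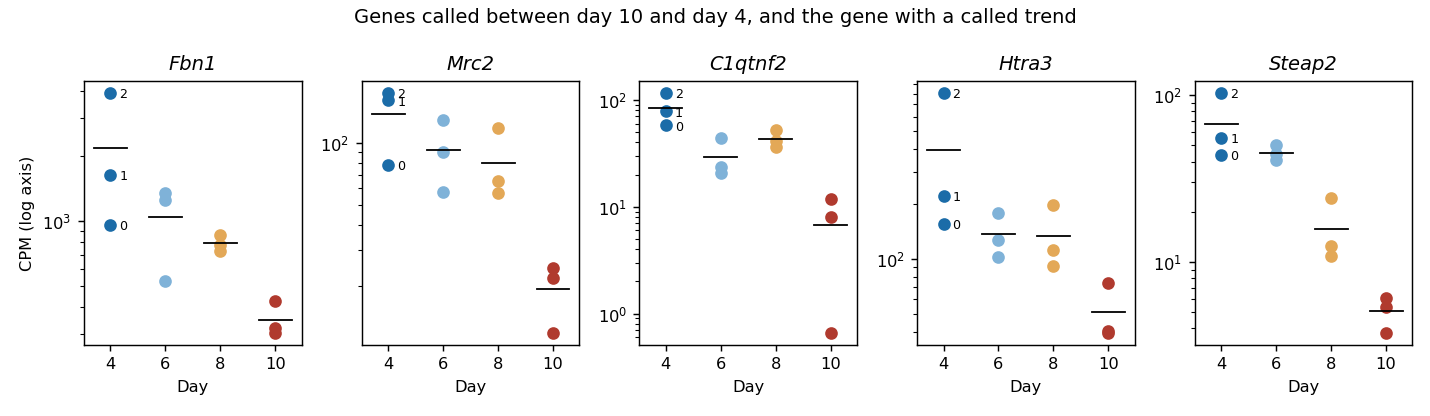
CPM of the 4 genes that passed the test and of Steap2 (the gene with a trend over the days) in every bridge library by day, on log axes; bars are means of 3 libraries and day 4 points are numbered by replicate. In all 5 genes the day 10 libraries lie below the day 4 libraries.

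Without day 4 replicate 1, the library that matches the distal stump, the log2 fold changes were -2.79 for Fbn1, -2.70 for Mrc2, -3.68 for C1qtnf2 and -3.23 for Htra3, and 1 gene (Fbn1) passed. Without day 4 replicate 2 no gene passed (298 at an unadjusted p under 0.05), and the log2 fold changes were -1.92, -2.65, -3.38 and -1.92. Day 4 replicate 2 alone against day 10, with replicates 0 and 1 left out together and its spread taken from the other groups, gave 27 genes (18 lower, 9 higher), all 4 among them. No gene passed without day 10 replicate 1 or without replicate 3 (354 and 379 at an unadjusted p under 0.05), and 46 passed without replicate 2.

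The promoters of the called genes are printed to show the sequence before genes that fell together. They run from 250 bases before to 50 after the start of the gene in RefSeq on GRCm38.p6, a later build than that of the counts. RefSeq's table held 3 of the 4. Capitals mark matches, on either strand, to ACGTG (the core of the hypoxia element), TCACNCCAC (a sterol element) and TTTGAA (the CHR of cell cycle genes). TTTGGCGC (E2F) and the CArG box of serum response factor were searched too.
Fbn1, chr2:125506389-125506688, minus strand: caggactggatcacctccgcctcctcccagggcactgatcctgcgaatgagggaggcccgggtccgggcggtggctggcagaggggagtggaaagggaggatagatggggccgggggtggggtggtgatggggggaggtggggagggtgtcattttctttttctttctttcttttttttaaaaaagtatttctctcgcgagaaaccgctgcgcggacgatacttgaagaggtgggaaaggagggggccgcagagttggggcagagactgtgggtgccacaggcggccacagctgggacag
C1qtnf2, chr11:43474056-43474355, plus strand: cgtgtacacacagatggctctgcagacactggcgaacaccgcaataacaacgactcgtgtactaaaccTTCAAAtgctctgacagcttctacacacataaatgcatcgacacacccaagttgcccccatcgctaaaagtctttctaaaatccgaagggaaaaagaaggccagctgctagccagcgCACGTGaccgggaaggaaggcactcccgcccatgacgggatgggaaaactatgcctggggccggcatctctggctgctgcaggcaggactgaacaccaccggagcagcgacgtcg
Htra3, chr5:35679731-35680030, minus strand: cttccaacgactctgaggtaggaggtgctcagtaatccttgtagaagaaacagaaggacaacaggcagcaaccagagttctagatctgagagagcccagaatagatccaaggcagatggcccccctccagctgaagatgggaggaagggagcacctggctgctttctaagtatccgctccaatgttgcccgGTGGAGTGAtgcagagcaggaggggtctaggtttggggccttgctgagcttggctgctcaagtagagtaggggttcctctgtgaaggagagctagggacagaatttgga
No motif recurred in the 3 promoters. That of C1qtnf2 holds a hypoxia core read on both strands within a palindrome and a CHR, that of Htra3 a sterol element, and that of Fbn1 none of the 5. Of all 27025 promoters, 21.8% held ACGTG, 20.2% TTTGAA and 1.44% the sterol element.

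Of the pathway lists, that of the matrix had the most genes lower at an unadjusted p under 0.05 and the most without overlap below. Of 41 tested genes of matricellular proteins and provisional matrix, 18 had all day 10 libraries below day 4 and 0 had all above, beside 6.78% and 8.44% of all genes. At an unadjusted p under 0.05, 21 were lower and 1 higher, beside 3.26% and 2.58% of all genes, and Fbn1 alone passed the adjusted test. The median log2 fold change of the list was -1.31, or -0.95 without day 4 replicate 2, beside 0.05 over all genes tested. The 52 genes of the list summed to 40155, 31176 and 61168 CPM at day 4 and 23820, 19887 and 31473 CPM at day 10, which overlap. With the 4 libraries of few genes left out, 8 passed, all lower. In the distal stump the median of the same genes over the same days was -0.03.

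Among the structural members, Ogn (osteoglycin, a small leucine-rich proteoglycan) was at 389.9, 338 and 851 CPM at day 4 and 30.1, 180.1 and 12.2 CPM at day 10. The groups did not overlap, with log2 fold change -2.83 ± 0.69 (SE) and adjusted p = 0.224 (edgeR). Fn1, the fibronectin of provisional matrix, was at 2215, 2554 and 5115 CPM and 670.0, 729 and 1749 CPM (log2 -1.65 ± 0.52, SE). Day 10 replicate 3 held the most Fn1 of its group and was still below the lowest of day 4. Prelp, another leucine-rich proteoglycan, was at 344, 225 and 448 CPM and 65.8, 71.8 and 22.01 CPM, again without overlap. Nov, a matricellular protein of the CCN family, was at 86.7, 82.7 and 848 CPM and 0.51, 31.1 and 0.61 CPM. Its value in day 4 replicate 2 was far above the others of that group, and day 10 replicates 1 and 3 were under 1 CPM (log2 -4.99 ± 1.14, SE, and -3.04 without day 4 replicate 2). Fn1 and Prelp were chosen after their values were seen.

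Enzymes that cross-link and cut matrix lay mostly on the same side. Lox, which cross-links collagen and elastin, was at 1202, 334 and 3034 CPM at day 4 and 159, 135 and 215 CPM at day 10. Its relative Loxl2 was at 476, 315 and 1489.7 CPM and 222, 82.02 and 276 CPM (log2 -1.97 ± 0.57, SE). Both were highest in day 4 replicate 2 and did not overlap. Of 26 tested metalloproteinases and their inhibitors, 4 were lower and 2 higher at an unadjusted p under 0.05, 5 did not overlap below and 3 above, and the median was -0.57. Over all genes tested, 3.26% were lower and 2.58% higher at that p, and 6.78% did not overlap below and 8.44% above. These shares stand beside the counts of every list below. Mmp2 (gelatinase A) was at 863, 698 and 1255 CPM and 177, 362 and 258 CPM, and Adamts5 (an aggrecanase) at 118, 182 and 393 CPM and 38.4, 44.4 and 46.98 CPM. In both the groups did not overlap, with log2 fold changes of -1.82 ± 0.58 and -2.42 ± 0.63 (SE). Serpine2, an inhibitor of thrombin and plasminogen activators, lay on the other side, at 808, 271 and 113 CPM and 1192, 854 and 1349 CPM.

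Collagen chains had a median nearer to 0. Of 19 tested, 3 were lower and 0 higher at an unadjusted p under 0.05, 4 did not overlap below and 3 above, and the median was -0.45, or -0.09 without day 4 replicate 2 and -0.76 without replicate 1. Col6a3 was at 506, 483 and 1021 CPM and 239.6, 184 and 355 CPM. Col3a1, a main fibrillar chain of young connective tissue, was at 7579, 8482 and 18889 CPM and 7509.6, 5195 and 3630.4 CPM. The Col6a3 groups did not overlap, while day 10 replicate 1 of Col3a1 came close to day 4 replicate 0. Of 58 tested genes of mesenchymal state and epithelial to mesenchymal transition, 11 were lower and 1 higher at an unadjusted p under 0.05, 12 did not overlap below and 4 above, and the median was -0.53, or -0.30 without day 4 replicate 2 and -0.28 without day 10 replicate 2.

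Markers of fibroblasts lay on the side of the matrix genes. Of 17 tested markers, 9 were lower and 0 higher at an unadjusted p under 0.05, 7 did not overlap below and 0 above, and the median was -1.25. The 18 markers summed to 36915, 27878 and 73358 CPM at day 4 and 28964, 21218 and 20832 CPM at day 10, with none at 0 in all libraries, and 5 of the 41 matrix genes are among them. Day 4 replicate 2, lowest in SC markers, held the most, and day 4 replicate 1 less than day 10 replicate 1. Pdgfra, the PDGF receptor of fibroblasts, was at 178, 131 and 233 CPM and 19.5, 52.1 and 82.9 CPM, with no overlap (log2 -1.81 ± 0.56, SE, adjusted p = 0.38, edgeR). Dpt (dermatopontin) was at 235, 559 and 1437 CPM and 22.9, 183 and 21.1 CPM. The part of fibroblasts in the matrix result was not tested.

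**Figure D3:**
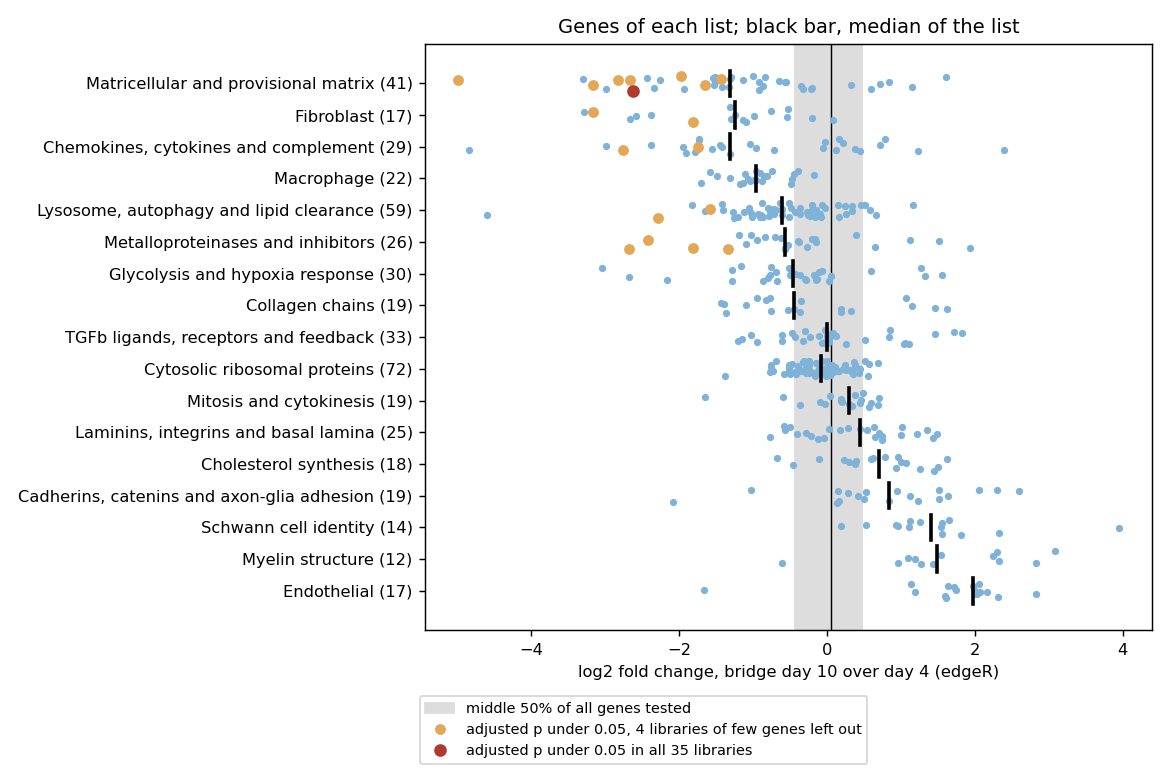
Log2 fold change between bridge day 10 and day 4 (edgeR, x axis) of each tested gene of 17 lists, with the number tested in brackets; short black bars are list medians, the vertical line is the median and the grey band the middle 50% of all genes tested. Matrix, fibroblast and chemokine lists have medians below -1, and Schwann cell identity, myelin and endothelial lists above 1.

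When the 4 libraries of few genes were left out, 59 genes passed the same edgeR test, 54 lower (0.753%) and 5 higher (0.0697%) at day 10. In 58 of the 59 the groups did not overlap, and in 41 the highest of the 6 values was that of day 4 replicate 2. With both libraries of animal 19 (day 4 replicate 1 and its distal match) left out as well, 41 of the 59 passed again. Without day 4 replicate 1, 52 passed, 43 of them among the 59. Without day 4 replicate 2, 5 passed, all of them among the 59, while 140 passed with replicates 0 and 1 left out together, 42 of them among the 59. All 59 kept their sign in each of these fits. Of the 54 lower genes (0.753% of all genes tested), 13 are on the lists of matrix, mesenchymal or metalloproteinase genes. These lists share members and had 41, 58 and 26 genes tested. The collagen list held 0 of the 54 (19 tested), the fibroblast list 2 (17 tested) and the macrophage list 0 (22 tested). On no pathway or cell type list were 35 of the 54.

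Among the 54, named here after their values were seen, were receptors, a lysosomal enzyme and a secreted protein. Il11ra1, the receptor of interleukin 11, was at 77.5, 185 and 157 CPM at day 4 and 36.7, 52.9 and 35.3 CPM at day 10 (log2 -1.75 ± 0.57, SE, over all 35 libraries). Day 4 replicate 0 was the lowest of its group, and still above all of day 10. Ddr2, a receptor kinase for fibrillar collagen, was at 149.6, 276 and 221 CPM and 73.1, 35.9 and 28.4 CPM. Lrp1, an endocytic receptor for proteases and apolipoproteins, was at 362, 505 and 377 CPM and 47.7, 54.4 and 152 CPM. Neither overlapped between the groups, and their log2 fold changes were -2.23 ± 0.62 and -2.29 ± 0.58 (SE). Gaa, the lysosomal enzyme that degrades glycogen, was at 169, 166 and 196 CPM and 69.1, 56.2 and 52.01 CPM, with close values within each group. Fstl1, a secreted glycoprotein that binds BMPs, was at 3403, 3049 and 9042 CPM and 1483, 1414 and 2261 CPM, highest by far in day 4 replicate 2.

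The 5 higher genes were Plekhb1, Ets1, Bcar1, Ccser2 and Cdkn2aipnl. Plekhb1, which encodes a membrane protein with a pleckstrin homology domain, was at 165, 90.5 and 38.1 CPM at day 4 and 948, 561 and 493 CPM at day 10. Ets1, a transcription factor of endothelial and other cells, was at 85.4, 25.3 and 38.5 CPM and 177, 349 and 556 CPM. Neither overlapped, and the lowest values of both were in day 4 replicates 1 and 2. Bcar1, the adhesion adaptor p130Cas, was at 15.3, 19.5 and 11.8 CPM and 48.9, 44.1 and 142 CPM. Ccser2 was at 54.9, 71.2 and 94.1 CPM and 179, 181 and 232 CPM, and Cdkn2aipnl at 56.2, 25.7 and 43.9 CPM and 158, 135 and 154 CPM. The groups of all 5 were apart. With all 35 libraries in the fit these genes had log2 fold changes of 2.77 ± 0.76, 2.86 ± 0.99, 2.33 ± 1.11, 1.43 ± 0.50 and 1.83 ± 0.53 (SE), with adjusted p between 0.251 and 0.847 (edgeR).

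Genes of SC identity lay on the higher side at day 10. All 14 tested had log2 fold changes above 0, with a median of 1.40, 4 were higher at an unadjusted p under 0.05 and 6 had all day 10 libraries above day 4 (8.44% of all genes did). S100b, a list member under the count minimum, lay the other way, at 26.7, 98.8 and 3.73 CPM at day 4 and 7.74, 6.89 and 0.52 CPM at day 10 (log2 -3.06 ± 1.26, SE, adjusted p = 0.539, edgeR with its own filter). No tested member passed the adjusted test in all 35 libraries or with the few-gene libraries left out. In the distal stump their median was 0.43. The 20 genes of the list summed to 3241, 2737 and 1363 CPM at day 4 and 9027, 6509 and 3862 CPM at day 10, lowest in day 4 replicate 2. Gpm6b, a membrane glycoprotein, was at 419, 259.8 and 75.2 CPM and 939, 708 and 559 CPM (log2 1.55 ± 0.63, SE, adjusted p = 0.616, edgeR). Dhh, the hedgehog ligand that SCs send to the perineurium and a member of the myelin list, was at 107, 19.8 and 20.8 CPM and 349.8, 274 and 79.9 CPM. Day 10 replicate 3 had less Dhh than day 4 replicate 0, so the groups overlapped.

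Myelin genes lay on the same side. Of 12 tested, 5 were higher and 0 lower at an unadjusted p under 0.05, 5 had all day 10 libraries above day 4, and the median was 1.49, with no gene past the adjusted test. Mbp (myelin basic protein) was at 149, 91.6 and 133 CPM at day 4 and 597, 292 and 120.2 CPM at day 10, and Pmp22 at 478, 389 and 528 CPM and 1375, 936 and 397 CPM. In both genes day 10 replicate 1 was the highest and replicate 3 the lowest of day 10. The groups of both overlapped through that replicate. Mal, a proteolipid of myelin and its traffic, was at 85.5, 44.9 and 17.6 CPM and 509.6, 363 and 175 CPM, and Gjc3, a connexin of SCs, at 32.1, 11.4 and 1.42 CPM and 189.8, 117 and 73.1 CPM. Neither overlapped, with log2 fold changes of 2.82 ± 0.91 and 3.08 ± 1.18 (SE) and adjusted p of 0.38 and 0.569 (edgeR). Mbp on day 6 ranged from 7.53 to 1082 CPM between replicates, which spans the difference between the 2 groups.

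**Figure D4:**
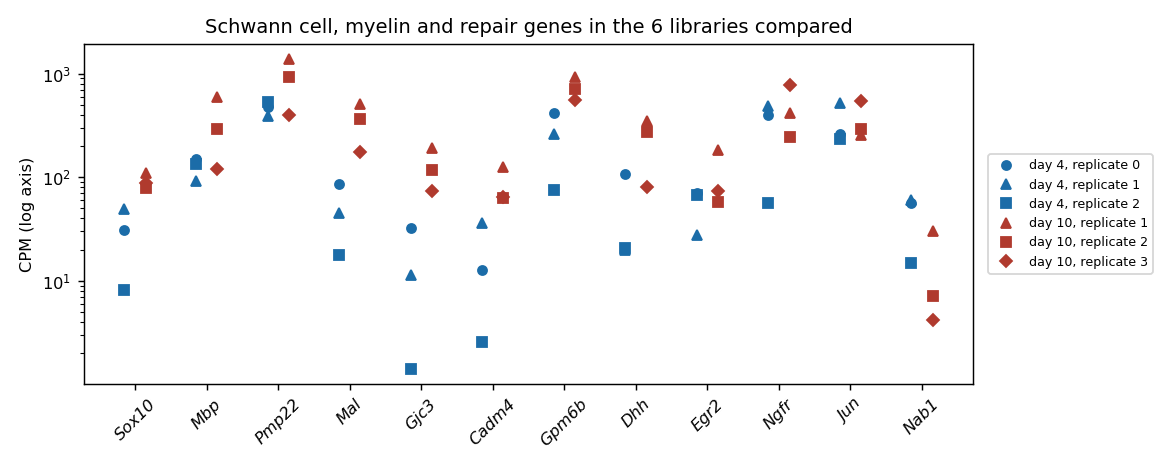
CPM on a log axis of 12 genes of SC identity, myelin and repair in the 6 libraries (blue day 4, red day 10, marker shape by replicate). Day 4 replicate 2 holds the lowest value in most SC and myelin genes, and Jun and Ngfr overlap between the days.

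The transcription factors that run the myelin and repair programs did not pass the test. Egr2, which drives myelination, was at 70.6, 27.6 and 67.96 CPM at day 4 and 182, 57.6 and 73.9 CPM at day 10 (log2 0.92 ± 0.92, SE). Jun, which drives the repair state, was at 260.2, 522 and 236 CPM and 254, 292 and 549 CPM. Ngfr, the low affinity neurotrophin receptor of repair SCs, was at 399.7, 488 and 56.3 CPM and 414, 243 and 773 CPM (log2 0.60 ± 0.86, SE). All 3 overlapped between the days. Of 13 tested repair and immature SC genes, 1 was lower and 2 higher at an unadjusted p under 0.05, and the median was 0.30. It held no direction: it was 1.03 without day 4 replicate 1, -0.05 without day 4 replicate 2 and -0.15 without day 10 replicate 3. Nab1, a corepressor that binds Egr2 and is on the list of myelination factors, was at 56.3, 59.8 and 15.01 CPM and 30.1, 7.14 and 4.23 CPM (log2 -1.66 ± 0.63, SE, adjusted p = 0.553, edgeR). For Nab1 the groups overlapped, since day 4 replicate 2 lay below day 10 replicate 1.

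Several genes that the study names for SCs after injury fell below the count minimum and were not tested. Sox2, a factor of immature SCs, was at 6.70, 27.5 and 0.53 CPM at day 4 and 17.4, 8.91 and 8.79 CPM at day 10. It was lowest in day 4 replicate 2, and the groups overlapped. Shh was at 20.99, 36.8 and 2.04 CPM and 5.87, 5.71 and 20.5 CPM, and Gdnf, a trophic factor of repair SCs, was above 1 CPM only in day 4 replicate 1 (23.2 CPM) and day 10 replicate 1 (8.16 CPM). Cdh1 (E-cadherin) reached at most 4.37 CPM, Olig1 was counted only in day 4 replicate 1 (40 counts), and Tgfb1 was at most at 1.18 CPM in any of the 6. Hmga2 ranged from 7.91 to 83.1 CPM at day 4 and from 1.26 to 14.3 CPM at day 10, and Ephb2 from 9.59 to 18.8 CPM and from 3.36 to 18.2 CPM.

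Of the tested ones, Cdh2 (N-cadherin, through which SCs hold together in cords) was at 24.4, 35.6 and 34.9 CPM and 58.4, 20.1 and 55.7 CPM, and Efnb2, a ligand of Eph receptors, at 24.1, 10.9 and 39.6 CPM and 8.95, 21.9 and 17.1 CPM. Both overlapped. Tgfbr2, the receptor of TGFβ, was at 476, 394 and 724 CPM and 235, 229 and 229 CPM, with no overlap. The 33 tested TGFβ ligands, receptors and feedback genes had 0 lower and 1 higher at an unadjusted p under 0.05. A list of genes induced by TGFβ in cultured rat SCs, drawn from other samples of the series, had 71 tested members with a median of -0.12 (0.06 without day 10 replicate 1 and -0.43 without replicate 3), 10 of them lower and 5 higher at an unadjusted p under 0.05. Zeb1, a factor of mesenchymal state, was at 95.2, 95.7 and 105 CPM and 52.5, 82.7 and 54.97 CPM, with all day 10 libraries below day 4. Sox9 was at 108, 80.7 and 19.99 CPM and 53.9, 18.9 and 41.4 CPM, and Myc at 39.3, 22.7 and 48.95 CPM and 56.2, 22.5 and 74.2 CPM, and both overlapped.

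Endothelial genes had the highest median of the 17 lists plotted. Of 17 tested, 7 were higher and 0 lower at an unadjusted p under 0.05, 12 had all day 10 libraries above day 4 (8.44% of all genes) and the median was 1.98. In the distal stump it was 1.64. The 19 markers summed to 884, 1157 and 1866 CPM at day 4 and 2221, 5104 and 2891 CPM at day 10, with none at 0 in all libraries. Cdh5 (VE-cadherin) was at 12.1, 44.2 and 18.6 CPM and 68.98, 109 and 132 CPM, and Robo4, an endothelial guidance receptor, at 5.91, 2.03 and 12.9 CPM and 23.02, 80.6 and 44.8 CPM. The groups of both were apart, with log2 fold changes of 2.05 ± 0.69 and 2.83 ± 1.13 (SE) and adjusted p of 0.445 and 0.597 (edgeR). No endothelial gene passed the adjusted test. On days 6 and 8 the summed markers ranged from 996 to 8133 CPM, so day 10 did not hold the highest values. F11r and Cldn1, from the list of junction proteins, were at 79.3, 35.8 and 37.6 and 118, 21.3 and 29.9 CPM at day 4 and at 78.95, 263 and 143 and 426, 318 and 70.4 CPM at day 10. Cldn1 overlapped in day 10 replicate 3 and F11r in day 10 replicate 1. How much of any difference in SC genes came with a change in endothelial or fibroblast RNA was not tested.

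Macrophage genes were present at both times. Of 22 tested, all had log2 fold changes below 0, with a median of -0.96 (-0.56 without day 10 replicate 1), but 0 reached an unadjusted p under 0.05 and 4 had all day 10 libraries below day 4. Their median in the distal stump was -1.08. The 25 markers summed to 22277, 18055 and 11665 CPM at day 4 and 2805, 8995 and 14598 CPM at day 10, which overlap. Lysosomal, autophagy and lipid clearance genes lay on the same side: of 59 tested, 10 were lower and 0 higher at an unadjusted p under 0.05, 14 did not overlap below and 1 above, and the median was -0.61, or -0.35 without day 4 replicate 0. The distal median of this list was -0.33. Ctsd, a lysosomal protease, was at 12829, 3889.8 and 3251 CPM and 1169, 1260.0 and 3187 CPM, and Ctsl at 926, 930.5 and 983 CPM and 255, 505 and 599.7 CPM. Both were lower in every day 10 library than in any of day 4. Apod is also on this list, and its log2 fold change of -4.61 ± 1.65 (SE, adjusted p = 0.485, edgeR) rested on day 4 replicates 0 and 1, without which it was 2.20 (adjusted p = 0.999, edgeR).

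**Figure D5:**
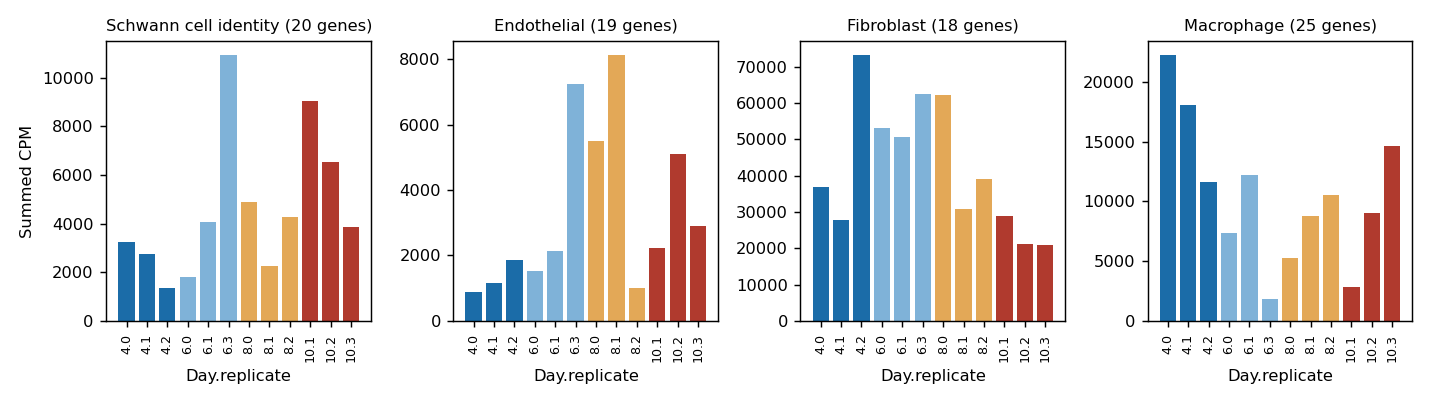
Summed CPM (y axes) of marker lists of SCs, endothelium, fibroblasts and macrophages in the 12 bridge libraries (x axes, day and replicate; blue day 4, light blue day 6, orange day 8, red day 10). Endothelial sums are between 884 and 1866 at day 4 and between 2221 and 5104 at day 10, and the fibroblast sum is highest in day 4 replicate 2.

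Chemokines, cytokines and complement also had a median below that of all genes. Of 29 tested, 9 were lower and 1 higher at an unadjusted p under 0.05, 9 did not overlap below and 1 above, and the median was -1.31, against 0.28 in the distal stump. Ackr3, a receptor that takes up CXCL12 without signalling through G proteins, was at 81.2, 77.2 and 397 CPM at day 4 and 26.2, 27.8 and 27.6 CPM at day 10. The value of day 4 replicate 2 was far above its group, and the 3 day 10 libraries were nearly equal (log2 -2.77 ± 0.62, SE, adjusted p = 0.101, edgeR). Il11ra1, given above, is on this list too. Lbp, a carrier of bacterial lipopolysaccharide that is not on this list, was at 144, 166 and 153 CPM and 13, 42.9 and 19.7 CPM, close within day 4 and apart from day 10 (adjusted p = 0.065, edgeR). Ptges, a list member that makes prostaglandin E2, was at 101, 62.2 and 81.1 CPM and 0, 7.98 and 0.66 CPM. It was under 1 CPM in day 10 replicates 1 and 3. Ptx3, a secreted pentraxin, is not a member and is on the distal-high list that Apod heads. Ptx3 was at 58.2, 126 and 73.7 CPM and 0.09, 10.17 and 1.36 CPM. Ccl2, the monocyte attractant, was at 88.2, 281 and 54.5 CPM and 11.6, 31.3 and 115 CPM and overlapped.

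Hypoxia genes had a median nearer to 0. Of 30 tested glycolysis and hypoxia genes, 7 were lower and 1 higher at an unadjusted p under 0.05, with a median of -0.46, or -0.11 without day 4 replicate 2 and -0.76 without replicate 1. P4ha2, a collagen prolyl hydroxylase, was at 193, 68.5 and 661 CPM and 82.8, 17.7 and 105 CPM, and Bnip3, a mitophagy receptor, at 139, 27.1 and 343 CPM and 20.8, 57.3 and 1.55 CPM. Both overlapped through day 4 replicate 1, and were highest in day 4 replicate 2. From the lists of growth and angiogenic factors, Hbegf, an EGF family ligand, was at 147, 17.2 and 12.1 CPM and 255, 155 and 566 CPM, and Fgf7 at 43.6, 58.4 and 50.5 CPM and 0, 9.50 and 0.42 CPM. In both genes the groups were apart, in opposite directions (log2 2.47 ± 0.79 and -3.96 ± 1.28, SE, adjusted p = 0.38 for Hbegf and 0.38 for Fgf7, edgeR). Ptn (pleiotrophin, which acts on axon growth) was at 51.9, 89.2 and 82.2 CPM and 247, 156 and 221 CPM, also without overlap.

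Of the remaining lists, cholesterol synthesis had a median of 0.70 over 18 genes with 0 past an unadjusted p of 0.05, cadherins and axon-glia adhesion 0.84 over 19, DNA replication 0.44 over 33 and mitosis 0.30 over 19. The cadherin median was 0.55 without day 4 replicate 2, that of DNA replication 0.68 without day 10 replicate 2, and that of mitosis between 0.08 (without day 10 replicate 1) and 0.40 (without day 4 replicate 0). Cytosolic ribosomal proteins had a median of -0.09 over 72 genes and oxidative phosphorylation one of 0.25 over 75. Both depended on single day 4 libraries: they were 1.1 and 1.14 without replicate 1, and -0.53 and -0.15 without replicate 0. For lists of genes chosen by region on the pooled libraries, of 99 tested genes of a list higher in the distal stump, 15 were lower and 0 higher at an unadjusted p under 0.05, and of 107 and 61 tested genes of lists higher in the bridge, 0 were lower and 13 and 13 higher. Those lists come from other libraries of the series, and day 4 replicates 0 and 1 held distal-high genes as described above. Fbn1, Fn1 and Lbp, given above, and Steap2, given below, are among the members of the distal-high list with 99 tested genes. Ets1 is on the bridge-high list with 107.

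The 12 bridge libraries of days 4 to 10 were also fitted with a slope on the day. Steap2, which reduces iron and copper for uptake, was the 1 gene of 7171 (0.0139%) that passed (edgeR's quasi-likelihood test with Benjamini-Hochberg adjustment). It lies at chr5:5664831-5694578 on the minus strand of NCBIM37. Steap2 is on a list of genes chosen as higher in the distal stump than in the bridge on the pooled libraries. Its levels were 43.8, 55.8 and 103 CPM at day 4, 41.2, 50.2 and 44.3 CPM at day 6, 12.5, 10.9 and 24.1 CPM at day 8 and 5.36, 6.05 and 3.76 CPM at day 10. Days 6, 8 and 10 did not overlap, and day 6 overlapped day 4. The slope was -0.65 ± 0.10 (SE) log2 units per day (adjusted p = 0.0304, edgeR). Between days 10 and 4 alone it did not pass in the fit of all 35 libraries (log2 -3.74 ± 0.94, SE, adjusted p = 0.241, edgeR), and it passed with the few-gene libraries left out (adjusted p = 0.00229, edgeR). The next genes by p of the slope were Fbn1 (-0.42 per day, adjusted p = 0.16), Gpr133, an adhesion receptor, Fbn2 (fibrillin-2) and Htra3. Gpr133 was at 59.9, 113 and 356 CPM at day 4 and at most 36.4 CPM (replicate 1) at day 10, and Fbn2 at 260.3, 244 and 277 CPM and 90.7, 53.95 and 58.8 CPM. All of these sloped down, and in both genes the end groups did not overlap.

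Between neighbouring days few genes passed the edgeR test: 0 between days 4 and 6 (299 at an unadjusted p under 0.05, 11 adjusted in DESeq2), 1 between days 6 and 8 and 1 between days 8 and 10. The gene of days 6 and 8 was Adh1, an alcohol dehydrogenase named here after its values were seen, with 0, 1.99 and 0 CPM at day 6 and 76.3, 26.9 and 183.5 CPM at day 8 (adjusted p = 0.0039, edgeR). Its day 4 and day 10 levels overlapped, at 23.99, 47.8 and 21.1 CPM and at 7.13, 43.2 and 19.7 CPM. The gene of days 8 and 10 was Lbp, which fell by 3.16 on the log2 scale (adjusted p = 0.0363, edgeR). Its day 8 levels were 129.7, 138 and 405 CPM, highest in the replicate with high Apod. The matrix list had medians of -0.51 from day 4 to 6, -0.26 from 6 to 8 and -0.67 from 8 to 10. For the fibroblast list the same steps were -0.76, 0.36 and -1.34. The matrix list thus lay below 0 at each step, and the fibroblast list above 0 at the middle one. The myelin list had medians of 1.44, -0.81 and 1.2 and did not hold 1 direction.

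Whether the change from day 4 to day 10 differed between bridge and distal stump was tested in the same fit. No gene passed edgeR's test of the difference (115 at an unadjusted p under 0.05, 90 of them with the more negative change in the bridge; DESeq2 also gave 0). Of the 6 animals of the bridge groups, 5 also gave a distal library of the same day, which this fit does not use. The 2 nearly identical day 4 libraries of animal 19 enter this test on opposite sides, and distal day 10 replicate 0 stood with the bridge in Apod. With both libraries of animal 19 left out, 0 genes passed (178 at an unadjusted p under 0.05, edgeR). With the animal as a random block in limma voom 7 genes passed, with a covariate for the first letter of the library codes 13, and without the few-gene libraries 1. Since this count depends on the fit, no change is named as particular to the bridge. The lowest p belonged to Lbp, whose distal levels were 171, 141 and 246 CPM at day 4 and 165, 285 and 351 CPM at day 10 (difference of changes -3.14 ± 0.76, SE, unadjusted p = 0.000263, adjusted p = 1, edgeR). C1qtnf2 came next, with distal levels of 42.8, 74.95 and 54.5 CPM and 21.99, 68.8 and 93.5 CPM, and Dcn (decorin) followed, at 5699, 5620.0 and 5562 CPM and 4123, 13885 and 18010.0 CPM in the distal stump and 5798, 5345 and 6269 CPM and 2174, 3745 and 2014 CPM in the bridge. In Dcn the distal day 10 libraries were the highest except replicate 0, which is the one that stood with the bridge in Apod. Of the called genes, Fbn1 had distal levels of 1483, 1615 and 2308 CPM and 916, 746 and 891 CPM, lower at day 10 as well. Mrc2 had 79.8, 163 and 107 CPM and 87.2, 79.4 and 63.5 CPM, and Htra3 193, 213 and 285 CPM and 133, 104 and 51.7 CPM. In the distal stump alone 0 genes passed between day 10 and day 4 (231 at an unadjusted p under 0.05).

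Of the genes below the count minimum, Pnpla7 and Slc41a2 passed edgeR's test when 15519 genes were kept by edgeR's own filter. Pnpla7, a lysophospholipase, had 546, 508 and 416 counts at day 4 and 1, 0 and 5 at day 10 (adjusted p = 0.0064, edgeR). Slc41a2, a magnesium transporter, had 486, 244 and 501 counts at day 4 and 0, 6 and 8 at day 10 (adjusted p = 0.0229, edgeR). Both were well counted in every day 4 library, including replicate 2, and nearly absent at day 10. A gene can pass that filter through the libraries of 1 group alone, so high counts at day 4 may be how they were kept.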

How the data were processed

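Per the labels and the study's methods, the authors aligned the reads with TopHat2 2.0.11 to mm9, counted them per gene with HTSeq without regard to strand and deposited raw counts. HTSeq's own categories and the 92 ERCC spike-ins were removed from 24016 genes. Groups came from the sample labels. The study's count minimum was applied, and 7171 genes that reached 100 counts in 85% or more of the single-nerve libraries (35) were tested. The study first removed libraries with few detected genes and so used fewer intact nerves. Here all 35 were kept, and leaving out the few-gene libraries was an alternative. The edgeR 4.0.16 quasi-likelihood test (R 4.3.3, trimmed mean of M values, 1 mean for each of 11 groups) was the main test, with Benjamini-Hochberg adjustment and a threshold of 0.05. The same fit gave the neighbouring days and the bridge against distal contrast, and 12 bridge libraries gave the slope on the day. Alternatives used DESeq2 1.42.0, limma 3.58.1 voom, other scalings, filters and sample sets. The test was tried on simulated counts. Named genes were those called, the members of each list with the lowest p, the genes the study names for SCs after injury, and any marked as chosen after their values were seen; some are not reported here. The members and gene lists were chosen with earlier results of these data known. Lists are described by counts and medians, with no set test. Counts without strand cannot separate overlapping or antisense genes. Smart-seq2 has no molecular identifiers, so reads are not independent molecules.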

Additional observations from a re-analysis of the deposited data

How the results depend on the processing

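Called genes between day 10 and day 4 numbered 4 over the 35 libraries. DESeq2 called 73, and a covariate for the first letter of the library codes, whose meaning is not stated, gave 47. Both counts include all 4. The 3 day 4 libraries all carry the letter A, and day 10 replicates 1, 2 and 3 carry A, B and C. Letter and day thus partly coincide. Other fits held only part of the 4. Limma voom called 4 genes, with 1 of the 4 among them. With edgeR's own filter 5 genes were called, 3 of the 4 among them, and with no filter 3, with 1 of the 4. Leaving out both libraries of animal 19, chosen after seeing the data, gave 3 genes, with 2 of the 4. The 12 bridge libraries alone and the 6 compared libraries alone gave 0 each, with 559 and 486 genes at an unadjusted p under 0.05. Leaving out 1 replicate gave 0 to 46. Chosen after seeing the data, leaving out the 4 few-gene libraries gave 59, these with both libraries of animal 19 52, and day 4 replicates 0 and 1 together 27. Within the fit without the few-gene libraries, leaving out 1 replicate gave 5 to 133, and day 4 replicates 0 and 1 together 140. The slope on the day called 1 gene, against 37 in DESeq2, 0 in limma voom, 0 with edgeR's own filter, 0 with no filter, 0 to 1 without 1 replicate, 2 without day 4 replicate 1 and day 8 replicate 2, and 6 without the 3 bridge libraries of high Apod. The bridge against distal difference called 0, against 13 with that covariate, 7 in limma voom with the animal as a random block, 0 to 12 without 1 replicate and 1 without the few-gene libraries. Between neighbouring days DESeq2 called 11 (days 4 and 6), 3 (days 6 and 8) and 15 (days 8 and 10). The cause of these differences was not tested.

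With the replicate number as a block, 6 genes were called between day 10 and day 4, all 4 among them, 0 for the slope and 0 for the difference. The number of day 10 replicate 1 is given as 1 in its title and 0 in another label. By the labels the numbers mark different animals at each day. Between days 4 and 10, samples sharing a number did not deviate together (r = -0.0194 for replicate 1 and -0.0264 for replicate 2). Over all bridge days such pairs ran from -0.282 to 0.249, and pairs of different numbers from -0.336 to 0.397.

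DESeq2's size factors in edgeR moved the median of all genes from 0.05 to -0.05, with 129 genes higher and 290 lower at an unadjusted p under 0.05 in place of 185 and 234, and called 5 genes. Of 1666 log2 fold changes of 88 named genes over the alternatives, 1508 kept direction and side of the threshold, 32 lost it, 124 gained it and 2 reversed: Apod at 2.20 and Nrcam at 1.08, both with day 4 replicates 0 and 1 left out. Of 470 medians of 47 lists, 438 moved by less than the spread between replicates.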
